A study of Mus musculus with 7 samples.

Results

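The genes described here are the mouse cyclins, cyclin-dependent kinases (CDKs), CDK inhibitors and cell division cycle (Cdc) genes that had a listed ATAC-seq peak. They were chosen by gene symbol: Ccn with a letter and a digit, or Cdk, Cdkn or Cdc with a digit, among protein-coding genes. The choice was made with earlier results of these data known. The rule found 38 genes with 41 peaks, out of 4663 protein-coding gene names and 6395 peaks in the list. The genes fall into 8 cyclins, 11 kinases, 3 inhibitors and 7 Cdc genes. A further 9 are partner genes, whose symbol goes on after the name of the cyclin, CDK or Cdc protein they were named for.

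ATAC-seq measures open chromatin by letting a transposase cut and tag accessible DNA. It was run on splenic T follicular helper (Tfh) cells, CD4 T cells that support B cells in the germinal centre, from B6/Sle1.Yaa mice aged 5 months, a lupus-prone strain, so that both groups carried Sle1 and Yaa. The sort took CD4+ CD44+ GITR- cells that were PSGL-1 low, CXCR5 high and PD-1 high. The treated group (4 samples) was injected with an antibody to IFNAR1, part of the type I interferon receptor, and the control group (3 samples) with anti-rat IgG, over 4 weeks with 2 injections in each. The sample labels spell the antibody anti-IFNA1, unlike the title. Whether a sample was 1 mouse or several is not stated there.

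Every peak of the list has more coverage after anti-IFNAR1 than the control IgG background, at a q of at most 0.05. Peaks in the other direction and single samples were not analysed here, and the spread between mice is therefore missing from all values. The pooled depths differed 3.54-fold in favour of anti-IFNAR1, where libraries of equal size would give 1.33, and the depth of each sample is unknown. In bulk cells, more cells with an open site and more cutting per cell cannot be told apart. Of 11 Tfh markers 8 had a listed peak (Cxcr5, Icos and Il21 had none), against 0 of 8 B cell markers, 0 of 7 CD8 T and NK cell markers and 2 of 8 myeloid markers, namely Cd14 and Cebpa. The share over all protein-coding genes was 21.1%. The Wilson 95% upper bounds of the B cell and of the CD8 T and NK cell counts were 32.4% and 35.4%. Both intervals include that share, so these low counts cannot be told apart from it. The part of other cell types in the results was not tested.

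Cyclins are the regulatory subunits that switch on CDKs, and inhibitors of the Cdkn families block those kinases. D-type cyclins with CDK4 and CDK6 start the exit from G1 by phosphorylating Rb proteins, which frees E2F factors, and cyclin E with CDK2 carries the cell into S phase. Cyclins A and B with CDK1 drive G2 and mitosis. Other CDKs act in transcription, where they phosphorylate RNA polymerase II or sit in Mediator. The Cdc names come from yeast division mutants and cover phosphatases, subunits of the anaphase-promoting complex, replication factors and the GTPase CDC42, which mainly shapes the cytoskeleton.

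Of the 85 protein-coding RefSeq genes whose symbol fits the rule, 38 (44.7%, Wilson 95% interval 34.6 to 55.3) had an assigned peak. Over all protein-coding genes the share was 21.1% (4614 of 21900). The share was 11 of 19 for kinases (57.9%), 8 of 16 for cyclins, 3 of 8 for inhibitors (37.5%), 7 of 21 for Cdc genes (33.3%) and 9 of 21 for partner genes (42.9%). Without Cdkn3, which the rule took by its symbol, the inhibitors were 3 of 7 (42.9%). The intervals of the 5 classes overlap. For kinases, cyclins and partner genes the lower bound (36.3%, 28% and 24.5%) lay above the background, and for inhibitors and Cdc genes it did not (13.7% and 17.2%). Genes are not replicates and were chosen with earlier results known, so these bounds are no test against the background.

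Grouped by role, a grouping made after the data were seen, G1 and G1/S genes were listed in 6 of 8 cases (75%, interval 40.9 to 92.9): Ccnd2, Ccnd3, Ccne1, Cdk2, Cdk4 and Cdk6 had a peak, Ccnd1 and Ccne2 did not. Of the S, G2 and M phase genes 1 of 6 (16.7%, interval 3.01 to 56.4) was listed, a share near the 21.1% of all protein-coding genes. This was Ccnb1, while Ccna1, Ccna2, Ccnb2, Ccnb3 and Cdk1 had no assigned peak. The intervals of these groups overlap, and the difference was not tested. Of the cyclins and kinases that act on transcription 6 of 11 were listed (54.5%), and of the Cdc25 phosphatases, which remove the inhibitory phosphates from CDKs, 2 of 3. The symbol rule asks for a digit, so Ccnc and Ccnh, which had a peak, and Ccnk, which had none, are not among the 11. The replication genes Cdc6, Cdc7 and Cdc45 had no assigned peak (0 of 3, interval 0 to 56.1, which includes 21.1%). A listed peak at the Cdc45 start was assigned to its neighbour Ufd1l.

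**Figure D1:**
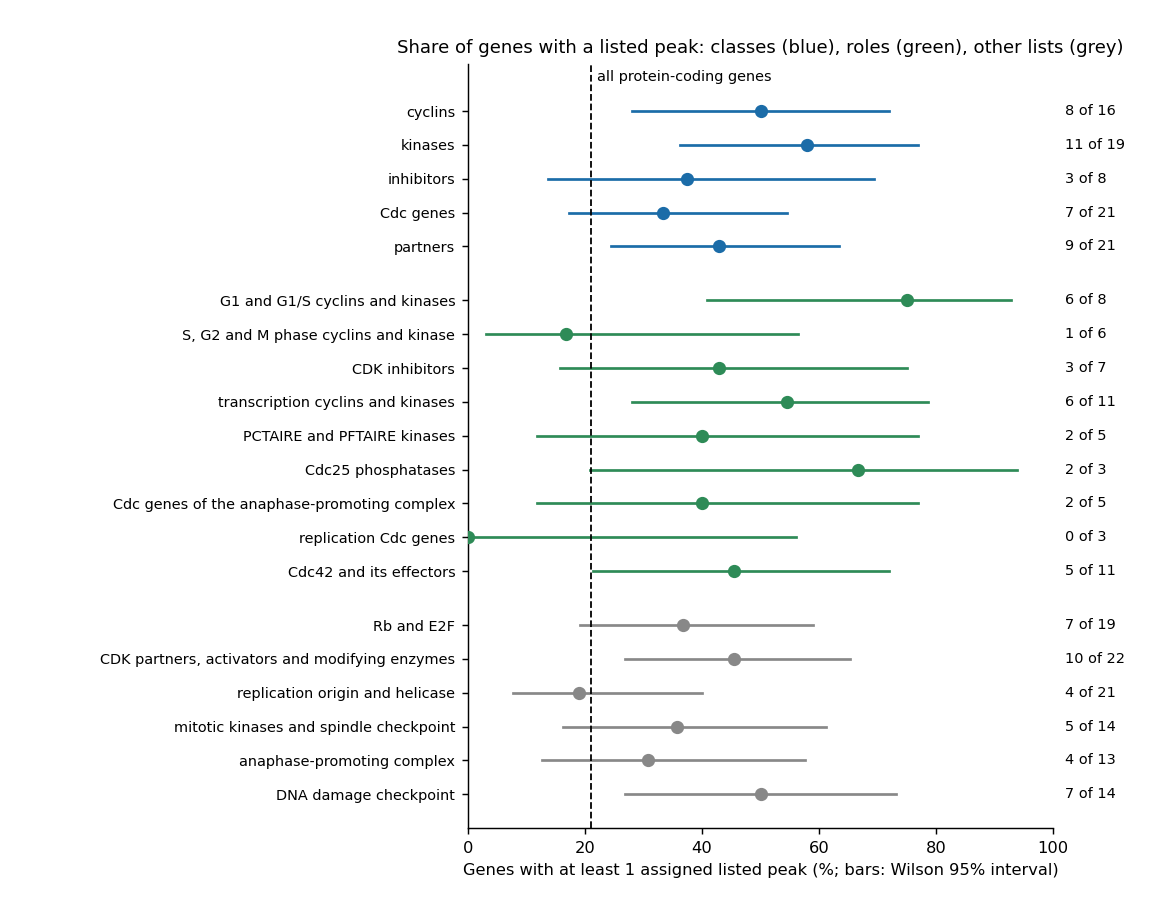
Share of genes with at least 1 assigned listed peak (horizontal axis, percent) for the gene classes, for roles and for other cell cycle lists, with Wilson 95% intervals; the dashed line is the 21.1% of all protein-coding genes and the counts stand at the right. The highest share is that of G1 and G1/S genes (6 of 8) and the lowest that of replication Cdc genes (0 of 3). The interval of the latter reaches 56.1% and includes the dashed line.

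The fold, pileup and q of each peak below are the caller's values from the authors' deposited table. The pileup counts the fragments over the summit after scaling to the control depth. The fold sets it over the local control background with a pseudocount of 1. Counts of fragments were recovered from these values. The background is the largest of the control coverage at the site, in a 1 kb window, in a 10 kb window and over the genome.

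Over the 41 peaks the median fold was 4.84 and the range 2.99 to 11.3, beside a median of 4.74 over the list and of 4.78 over all TSS peaks of protein-coding genes. The median pileup was 13.6, beside 11.6 and 13.0. Of the 41 peaks 37 (90.2%) had a q of at most 0.01, against 82.4% of the list and 86.2% of all TSS peaks of protein-coding genes. Inhibitor peaks had the highest median fold of the classes, 7.02 (range 5.57 to 7.32), followed by 4.91 for partner genes (3.94 to 7.0), 4.86 for kinases (3.06 to 11.3), 4.44 for Cdc genes (2.99 to 6.98) and 4.28 for cyclins (3.54 to 7.20). The range of the 3 inhibitors lies inside that of the kinases. With 1 peak per gene the cyclin median was 4.81, above the 4.44 of Cdc genes. Median pileups were 16.7 for inhibitors, 15.1 for kinases, 13.0 for cyclins, 11.6 for partner genes and 11.3 for Cdc genes.

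**Figure D2:**
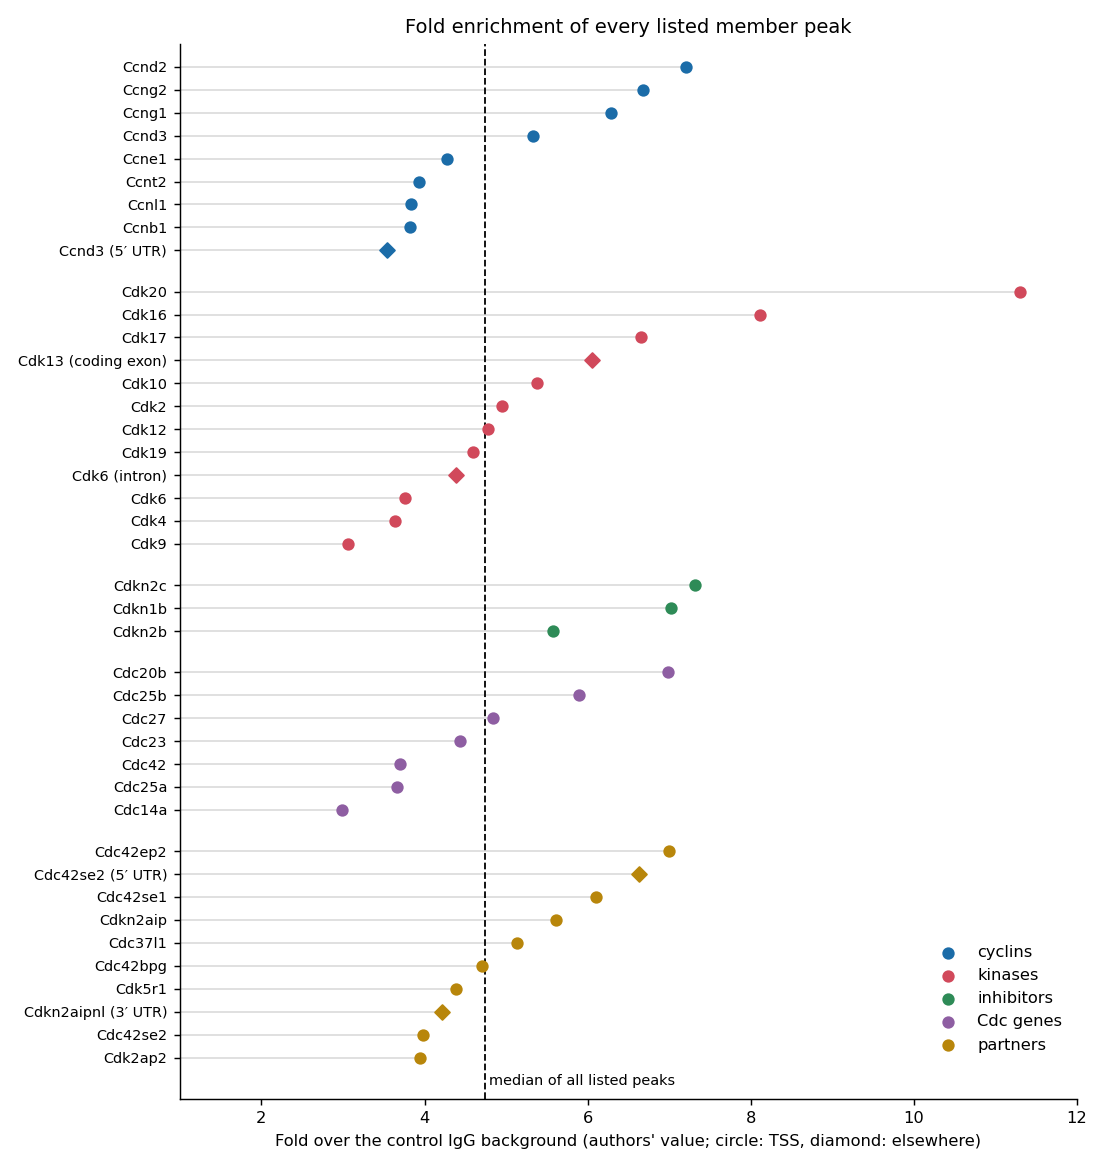
Fold of each of the 41 member peaks over the control IgG background (horizontal axis), sorted within the classes; circles are peaks at a transcription start site, diamonds peaks elsewhere, and the dashed line is the median of all listed peaks (4.74). Cdk20 stands alone at 11.3, and all 3 inhibitor peaks lie to the right of the line.

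Promoter sequences from RefSeq (GRCm38.p6), each 250 bases before to 50 after a gene start, were found for 73 of the 85 genes of the family, 86 promoters in all. The 100 bases before the start are shown for 4 members whose window lies whole inside a listed peak. Each is given on the strand of the gene, with 3 kinds of motif in capitals, read on both strands. They are the GC box, whose letters are GGGCGG, the CCAAT box, named for its letters, and the CHR element, whose letters are TTTGAA. The members shown were chosen after their values were seen. Each motif was counted whether or not it overlapped another.
Ccng2, chr5:93267473-93267572, plus strand: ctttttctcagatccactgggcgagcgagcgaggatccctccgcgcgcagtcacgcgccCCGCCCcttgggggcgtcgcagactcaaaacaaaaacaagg
Cdk20, chr13:64432453-64432552, plus strand: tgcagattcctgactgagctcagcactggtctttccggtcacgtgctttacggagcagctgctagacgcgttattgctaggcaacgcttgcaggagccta
Cdkn2c, chr4:109666757-109666856, minus strand: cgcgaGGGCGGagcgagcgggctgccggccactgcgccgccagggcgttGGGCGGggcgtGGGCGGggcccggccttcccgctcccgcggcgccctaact
Cdkn2aip, chr8:47713932-47714031, minus strand: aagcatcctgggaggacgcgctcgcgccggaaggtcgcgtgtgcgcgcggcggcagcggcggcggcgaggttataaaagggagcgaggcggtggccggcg
The Cdkn2c window holds 3 GC boxes and the Ccng2 window 1, while those of Cdk20, the member with the largest fold, and Cdkn2aip hold none of these motifs. In the longer promoter, from 250 bases before to 50 after the start, Cdkn2aip has 3 GC boxes and Cdk20 none. The 100 bases before another Cdkn2c start, also whole inside the peak, hold none of these motifs.

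The D-type cyclin genes Ccnd2 and Ccnd3 were listed with 1 and 2 peaks. The Ccnd2 peak spanned chromosome 6 from 127150207 to 127153260 (mm10) at the TSS and was the widest of the member peaks at 3053 bp, against a median of 581 bp. There were 46 fragments over a control background of 0.944, with a fold of 7.20 (q = 2.27e-08). The Ccnd3 TSS peak (chromosome 17, 47593204 to 47593668) held 42 fragments over a background of 1.42, with a fold of 5.33 (q = 8.97e-05). The second Ccnd3 peak, 47531554 to 47531869, lay in an exon of the 5′ UTR at 26313 bp from the TSS that the file assigned to it. It was among the weakest of the member peaks, with 34 fragments against 2 at the site, a fold of 3.54 (q = 0.0352).

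Ccne1, the cyclin E gene, had a narrow peak of 339 bp just upstream of its start (chromosome 7, 38107680 to 38108019). It held 76 fragments over a background of 4.25, with a fold of 4.28 (q = 4.20e-06). Ccnb1, which encodes the mitotic cyclin B1, had a TSS peak (chromosome 13, 100786017 to 100786580) with 37 fragments against 2 and a fold of 3.82. Of the cyclins with a peak, Ccnb1 had the largest q at its best peak, 0.00897.

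Cyclins G1 and G2 are atypical cyclins, cyclin G1 a p53 target and cyclin G2 linked to growth arrest. Ccng2 had the smallest q of the cyclin peaks, 1.29e-11. Its TSS peak (chromosome 5, 93267194 to 93268436) held 91 fragments against 3 in the control at the site, with a fold of 6.68. The Ccng1 peak (chromosome 11, 40754762 to 40755316) held 45 over a background of 1.18, with a fold of 6.29 (q = 2.15e-06). Among the members, the transcription cyclins Ccnt2 and Ccnl1 had lower folds than Ccng1 and Ccng2. The fold was 3.93 at Ccnt2, whose product pairs with CDK9 in the elongation factor P-TEFb, and 3.83 at Ccnl1, a partner of CDK11 in splicing. Their paralogues Ccnt1 and Ccnl2 had no assigned peak. Ccnc and Ccnh, which fall outside the symbol rule, had higher folds of 6.04 and 5.21.

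The kinases of G1 were listed with moderate values. Cdk4 (chromosome 10, 127063381 to 127063831) held 48 fragments against 3 control fragments, a fold of 3.64 (q = 0.00415). Cdk6 had 2 peaks. Its TSS peak (chromosome 5, 3341654 to 3344401) was 2747 bp wide, with 63 fragments against 4 and a fold of 3.76. The other, in intron 1 from 3355803 to 3356135 and 11491 bp from the TSS, held 23 over a background of 0.708, with a fold of 4.39 (q = 0.00995). Cdk2 (chromosome 10, 128704746 to 128705055) held 47 over 1.89, with a fold of 4.95 (q = 3.93e-05). Cdk4 and the Cdk6 TSS peak lay below the median fold of the list and Cdk2 above it.

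The largest fold and the smallest q of all members were those of Cdk20, the cell cycle-related kinase. Its TSS peak (chromosome 13, 64432313 to 64433080) held 43 fragments with 0 control fragments at the site, and the background of 0.165 came from 7 fragments in the surrounding 10 kb. The fold was 11.3 and the q 1.14e-15, rank 73 of the 6395 peaks by q. The start of the noncoding gene 1700015C15Rik lies 117 bp from that of Cdk20, so the peak covers both. Among the kinases, the next in both values were the PCTAIRE kinases, a CDK branch with roles outside the core cycle. Cdk16 (chromosome X, 20687932 to 20688725) held 59 fragments over 1.18, with a fold of 8.11 (q = 3.46e-10). Cdk17 (chromosome 10, 93160259 to 93161715) held 67 against 2, with a fold of 6.65 (q = 8.30e-09). Their relatives Cdk14, Cdk15 and Cdk18 had no assigned peak.

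Cdk19 and Cdk9, both kinases of transcription, had the highest pileup of the members, 26.6 each. Cdk19, a Mediator kinase (chromosome 10, 40348745 to 40349913), held 94 fragments against 5, with a fold of 4.60 (q = 4.77e-08). Cdk9, the P-TEFb kinase, also held 94, but against 8 control fragments, and its fold of 3.06 was the lowest of the kinases. Cdk12, which phosphorylates RNA polymerase II together with cyclin K, held 81 against 4, a fold of 4.78. Its paralogue Cdk13 had a peak in coding exon 1 (chromosome 13, 17803435 to 17804274), 824 bp from the TSS, with 31 fragments over 0.614, a fold of 6.05 (q = 5.16e-05). Cdk10 was the thinnest kinase peak, with 18 fragments over the genome rate of 0.132 and a fold of 5.38. Cdk7, Cdk8, Cdk11b and Cdk5, a kinase best known from neurons, had no assigned peak.

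All 3 listed inhibitor genes encode brakes on G1. Cdkn1b, the gene for the Kip family inhibitor p27, had a peak on chromosome 6 from 134920457 to 134921547 with 74 fragments over 2.12, a fold of 7.02 (q = 4.08e-10). Cdkn2c, which encodes the INK4 inhibitor p18 of CDK4 and CDK6, had a peak on chromosome 4 from 109665309 to 109667054 with 59 over 1.42, a fold of 7.32 (q = 3.87e-09). Cdkn2b, the p15 gene, had one on the same chromosome from 89310593 to 89310982 with 58 over 2.12, a fold of 5.57 (q = 7.66e-07). Each of them had a pileup above the list median of 11.6. Cdkn1a, Cdkn1c, Cdkn2a, Cdkn2d and Cdkn3 had no assigned peak.

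The Cdc genes were led by Cdc25b. Its peak on chromosome 2 from 131190126 to 131191188 held 59 fragments against 2, with a fold of 5.89 (q = 3.73e-07). The file placed it at the TSS of a retained-intron transcript, and the summit lay 3325 bp from the RefSeq start of the gene. Cdc25a (chromosome 9, 109875593 to 109876105) held 40 over 2.36, with a fold of 3.66 (q = 0.00780), and Cdc25c had no assigned peak. Cdc20b, a relative of the anaphase activator gene Cdc20, had a fold of 6.98 (q = 1.05e-06) from 27 fragments over 0.236 (chromosome 13, 113035166 to 113036077). Cdc20 itself had no assigned peak. Of the subunits of the anaphase-promoting complex, Cdc27 (chromosome 11, 104550081 to 104550497) held 50 over 2.12, with a fold of 4.84 (q = 2.48e-05). Cdc23 (chromosome 18, 34651434 to 34651725) held 27 over 0.944, with a fold of 4.44 (q = 0.00750). The phosphatase gene Cdc14a had the lowest fold of all members, 2.99, from 60 against 5 fragments. Cdc42 had a fold of 3.70 (q = 0.0261). No peak was assigned to Cdc14b, Cdc16, Cdc26, Cdc34, Cdc37, Cdc40, Cdc5l, Cdc73 or Cdc123.

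The smallest q-values of the partner genes were those of CDC42 effectors. Cdc42se1 (chromosome 3, 95228326 to 95228762) held 74 fragments over 2.60, a fold of 6.10 (q = 1.02e-08). Cdc42ep2 (chromosome 19, 5924030 to 5924843) held 46 against 1, a fold of 7.0 (q = 4.13e-08). Cdc42se2 had 2 peaks on chromosome 11. The one in an exon of the 5′ UTR (54764248 to 54764919), at a distance of 22728 bp from the TSS, had 31 fragments over 0.472 and a fold of 6.63, above the 3.98 of its TSS peak (54787221 to 54787639), which held 57 over 3.30. Cdkn2aip, which encodes a binding partner of the ARF tumour suppressor (chromosome 8, 47713383 to 47714429), held 56 against 2, with a fold of 5.61 (q = 2.19e-06). Cdkn2aipnl had the single member peak in a 3′ UTR exon (chromosome 11, 51968530 to 51968821), 638 bp from the TSS, with 17 fragments over 0.378, a fold of 4.21 (q = 0.0352). The others were Cdc37l1, a relative of the chaperone partner gene Cdc37, with a fold of 5.13, Cdc42bpg, a kinase downstream of CDC42, with 4.70, Cdk5r1, an activator of CDK5, with 4.39, and Cdk2ap2 with 3.94. The Cdc42bpg peak lay at −995 bp from the TSS in the file. The partner genes without an assigned peak were Ccnb1ip1, Cdc42bpa, Cdc42bpb, Cdc42ep1, Cdc42ep3, Cdc42ep4, Cdc42ep5, Cdk2ap1, Cdk5r2, Cdk5rap1, Cdk5rap2 and Cdk5rap3.

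**Figure D3:**
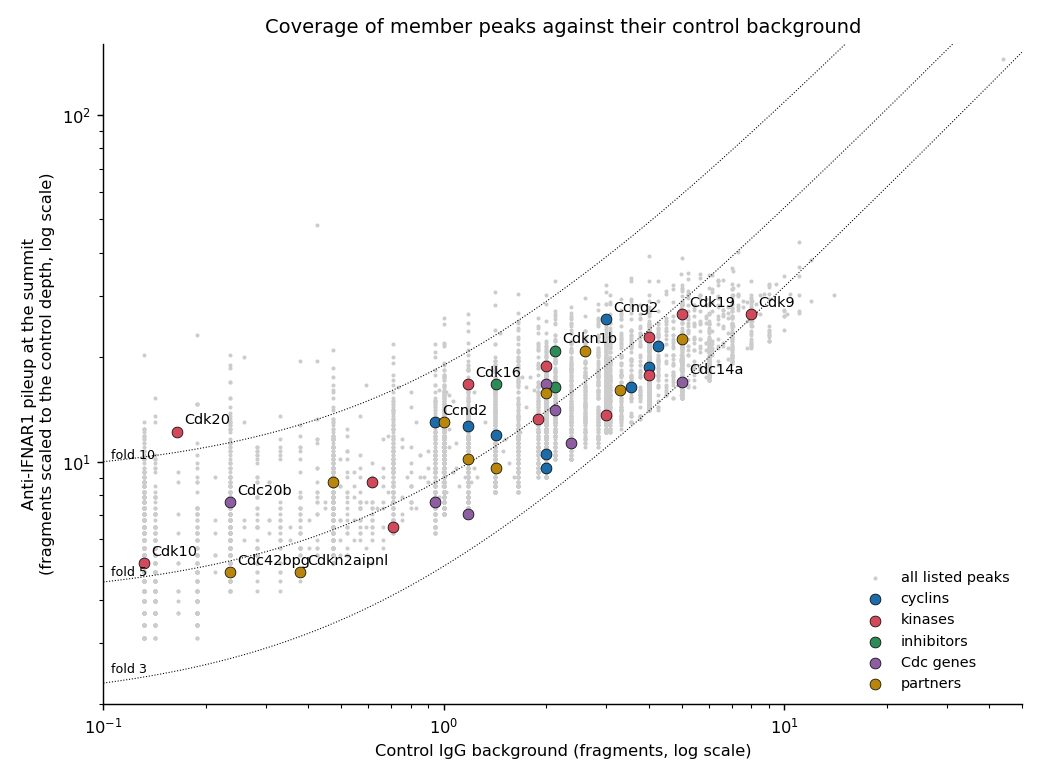
Anti-IFNAR1 pileup at the summit (vertical axis, log scale) against the control IgG background (horizontal axis, log scale) for all 6395 peaks in grey and the member peaks in colour; dotted lines mark equal fold. Cdk20, Cdk10 and Cdc20b have backgrounds below 1 control fragment, whereas Cdk9 and Cdk19 have the highest pileup of the members over 8 and 5 control fragments.

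The same fold arose from different counts. Cdk10 reached 5.38 with 18 fragments and Ccnd3 reached 5.33 with 42, since the control background was 0.132 at the former and 1.42 at the latter. Over the members the background ranged from 0.132 to 8.0 fragments. Its source was read from its fit to whole control fragments: the site for 15 peaks, the 1 kb window for 22, the 10 kb window for 3 and the genome rate for 1. A value that fitted both windows was read as the 1 kb window, so some of the 22 could come from 10 kb. Few control fragments stood behind each fold, so the ratio of fragments was also given with its exact (Clopper-Pearson) 95% interval, scaled for depth. For the 15 peaks with control fragments at the site the ratio ran from 3.32 at Cdk9 (interval 1.62 to 7.92) to 13.0 at Cdc42ep2 (2.22 to 525). Ccng2 had 8.57 (2.84 to 42.4), Cdk17 9.47 (2.52 to 79.8) and Cdc25b 8.34 (2.21 to 70.5). The intervals of all 15 overlap.

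Against a window, the ratio was 73.6 (32.8 to 194) for Cdk20, 14.1 (5.73 to 45.1) for Cdk16, 13.8 (5.03 to 52.7) for Ccnd2, 11.8 (5.10 to 33.4) for Cdkn2c and 9.85 (4.92 to 22.4) for Cdkn1b. A window ratio sets a summit against its surroundings on the control side and is therefore not comparable with a ratio at the site. With the most control fragments that the background allows at the site, the lower bound for Cdk20 was 3.16. The lowest such bound over the 41 peaks was 1.16, at Cdc42. Peaks were listed because their coverage was high over the control, so bounds above 1 are no independent evidence. The intervals describe counting error alone, and PCR copies were counted as if they were separate molecules if they were not removed.

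**Figure D4:**
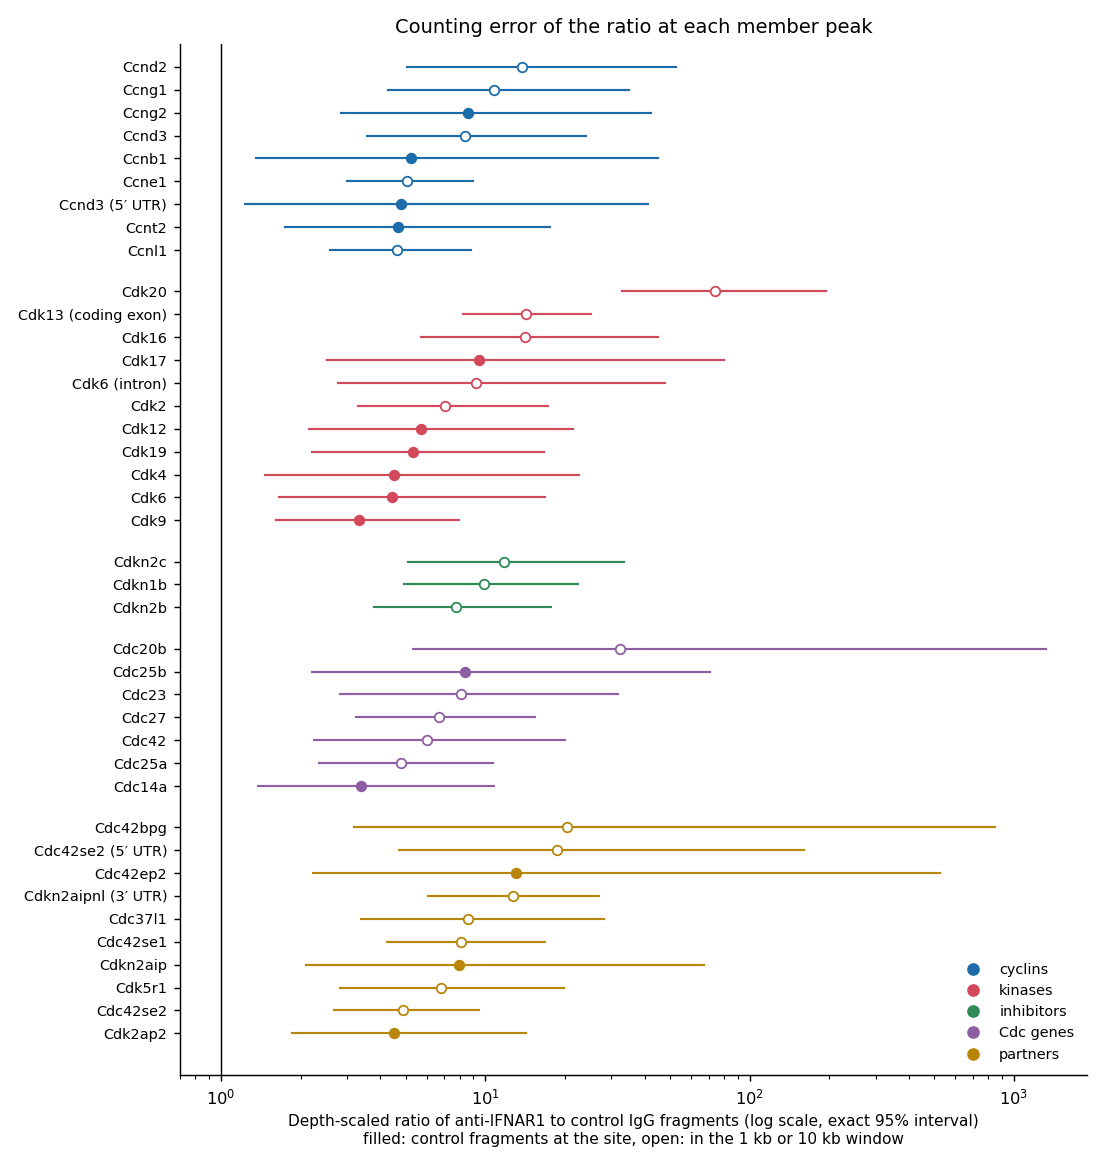
Depth-scaled ratio of anti-IFNAR1 to control IgG fragments (horizontal axis, log scale) with its exact 95% interval for the 40 member peaks whose background held control fragments; filled points use control fragments at the site and open points those in the 1 kb or 10 kb window. The intervals of the filled points overlap, and the lowest bound is 1.23 at the 5′ UTR peak of Ccnd3.

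When the noise of the control fragments entered a one-sided exact conditional binomial test with the caller's window, 32 of the 41 peaks had a p within the largest deposited one (6.90e-05), beside 68.7% of the list. At the site alone 14 stayed (34.1%), beside 20.9% of the list and 25.6% of all TSS peaks of protein-coding genes. The 14 were Ccng2, Ccnd2, Ccne1, Cdk20, Cdk16, Cdk17, Cdk19, Cdk12, Cdkn1b, Cdkn2c, Cdkn2b, Cdc25b, Cdc42se1 and Cdk2ap2. The site test needs 39 fragments even with 0 control fragments, and 13 member peaks had fewer. All 3 inhibitor peaks, 5 of 12 kinase peaks, 3 of 9 cyclin peaks, 1 of 7 Cdc peaks and 2 of 10 partner peaks stayed. The test compares the pooled fragments of 2 sides, not the treatments.

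Most member peaks lay at gene starts. The file placed 36 of 41 (87.8%, Wilson 95% interval 74.5 to 94.7) at the TSS, beside 81.4% of all peaks of protein-coding genes. The 5 others were those of Ccnd3, Cdk6, Cdk13, Cdc42se2 and Cdkn2aipnl described above. Each held fewer than the 39 fragments that the site test needs, so none of them could pass it. For 35 peaks a RefSeq start of the gene was at hand (GRCm38.p6, the same build). The summit lay within 1 kb of it for 30, at a median distance of 184 bp, and farther for 5, namely Cdc25b and 1 peak each of Ccnd3, Cdk6, Cdk13 and Cdc42se2. Of the 30 summits 18 lay downstream and 12 upstream of the start, and 19 of the 30 peaks covered the start itself. The summits of all 3 inhibitor genes lay downstream, 236 bp into Cdkn2b, 253 bp into Cdkn2c and 492 bp into Cdkn1b.

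**Figure D5:**
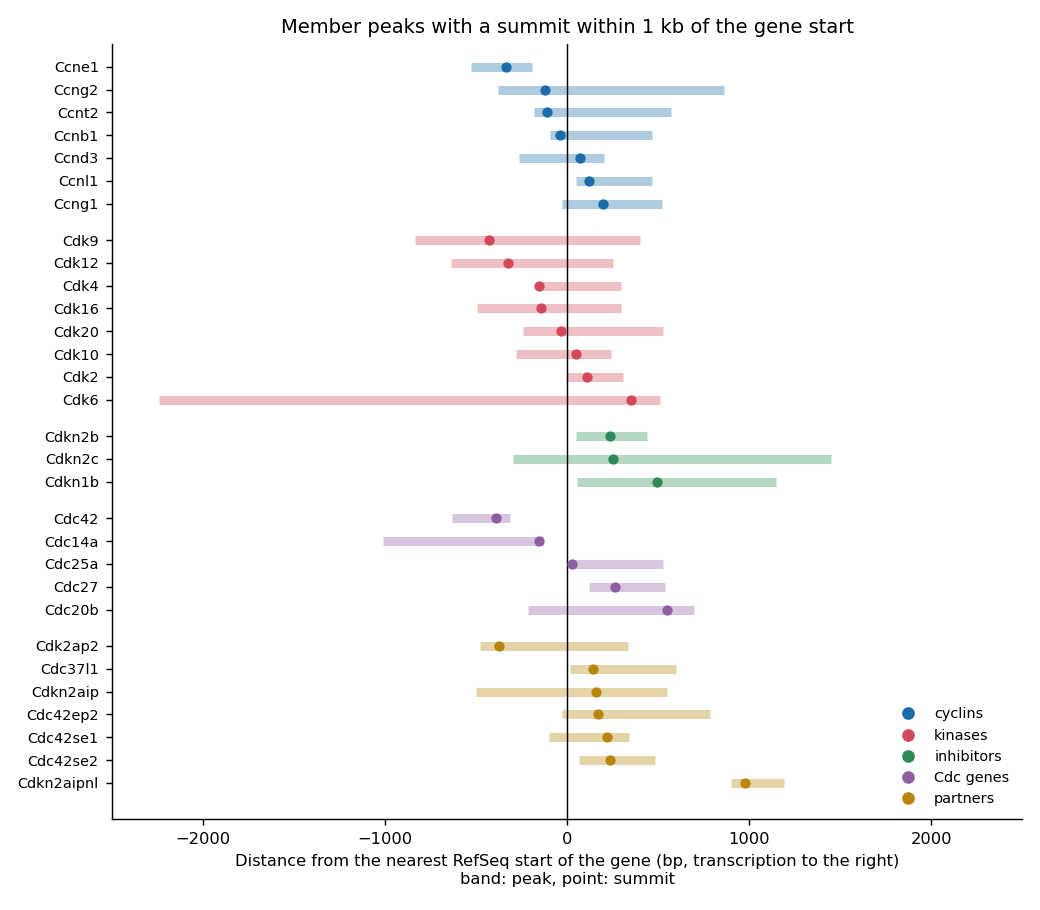
Extent (band) and summit (point) of the 30 member peaks with a summit within 1 kb of a RefSeq start, as the distance in bp from that start with transcription to the right. Summits sit on both sides of the start, 18 downstream and 12 upstream, and the Cdk6 peak reaches to −2239 bp.

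Some cell cycle genes counted as unlisted had a peak at their start that the file gave to a neighbour. Among the 47 genes without an assigned peak, 5 had a listed summit 71 to 204 bp from their RefSeq start. Cdc45, which encodes a part of the replicative helicase, shared the peak assigned to Ufd1l (chromosome 16, 18811704 to 18812288), with 69 fragments against 3, a fold of 5.13 (q = 5.12e-07). Cdc26, a subunit gene of the anaphase-promoting complex, shared that of Prpf4 (chromosome 4, 62407787 to 62408631), with a fold of 5.07. The splicing factor gene Cdc40 shared that of Wasf1 (chromosome 10, 40883101 to 40883660), with 6.03, Cdc5l that of B230354K17Rik, with 3.89, and Cdc42ep3 that of Gm17315, with 5.53. Counted by a peak within 1 kb of a gene start, 36 of 73 genes with a start in the table (49.3%) were listed, beside 23.4% of protein-coding genes. Conversely, 8 of the 36 member TSS peaks (22.2%) had the start of another gene within 1 kb of the summit, which is the background share of 22.3% over all TSS peaks of protein-coding genes. Coverage at such a peak cannot be assigned to 1 of the genes. At Cdk9, Cdc42se1, Cdc14a and Ccnt2 the start of the other gene was nearer to the summit than the member's own.

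A promoter counted as under a listed peak if a peak overlapped any part of its window. A motif counted in such a promoter can therefore lie outside the peak. GC boxes were frequent in the whole family. They stood in 24 of 31 family promoters under a listed peak (77.4%) and in 37 of 55 that were not (67.3%). Over protein-coding promoters the shares were 73.5% under a listed peak, 40.4% elsewhere and 46.2% in all. The median number of CpG dinucleotides was 24 in the 31 family promoters under a listed peak and 22 in the other 55. Over protein-coding promoters it was 24 under a listed peak and 9.0 elsewhere. CCAAT boxes stood in 14 of the 31 (45.2%), against 38.2% of all protein-coding promoters and 40.4% of those under a listed peak. The CHR element TTTGAA, known from G2 and M phase promoters, stood in 4 of the 31 (12.9%). That share lay below the 16.0% of all protein-coding promoters and above the 10.0% of those under a listed peak. Among the 55 family promoters not under a listed peak it stood in 14 (25.5%), beside 17.3% of such protein-coding promoters.

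An E2F site (TTTGGCGC, TTTCGCGC, TTTCCCGC or TTTGCCGC on either strand) stood in 6 of 86 family promoters (6.98%). The share was 2.85% of all protein-coding promoters. Under a listed peak it was 2 of 31 family promoters (6.45%) and 5.01% of protein-coding promoters. Elsewhere it was 4 of 55 family promoters (7.27%) and 2.40% of protein-coding promoters. In the family an E2F site was found in Cdc25a and Cdk2, which had a listed peak reaching into the promoter, and in Cdc6, Cdk1, Cdkn2a and Cdc42bpa, which had none. To compare listed and unlisted genes that hold this letter pattern, 4 of these sites are shown with 20 bases on each side and the site in capitals.
Cdc25a, chr9:109875492-109875539, plus strand, listed: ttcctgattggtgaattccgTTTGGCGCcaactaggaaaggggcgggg
Cdk2, chr10:128705164-128705211, minus strand, listed: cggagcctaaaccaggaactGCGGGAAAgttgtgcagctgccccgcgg
Cdk1, chr10:69353016-69353063, minus strand, not listed: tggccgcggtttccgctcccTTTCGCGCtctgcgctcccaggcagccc
Cdc6, chr11:98907993-98908040, plus strand, not listed: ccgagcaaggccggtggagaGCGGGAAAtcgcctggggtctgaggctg
The site begins at −67 from the gene start in Cdc25a, −140 in Cdk2, −131 in Cdk1 and −138 in Cdc6. In Cdc25a and Cdk2 it lies outside the peak, which covers bases further downstream.

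The interferon-stimulated response element core GAAANNGAA was read on both strands and is known to be bound by interferon regulatory factors. It stood in 3 of 86 family promoters (3.49%) against 8.15% of all protein-coding promoters. Under a listed peak it stood in 2 of 31 family promoters (6.45%) and in 5.55% of protein-coding promoters. It lay inside a listed peak in 1 case, the promoter of Ccnt2, shown with the match in capitals. The window also holds the start of the neighbouring gene 2900009J06Rik.
Ccnt2, chr1:127774012-127774060, plus strand: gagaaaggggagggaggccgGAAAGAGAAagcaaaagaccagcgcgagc
The cyclic AMP response element TGACGTCA stood in 5 of 86 family promoters (5.81%) against 2.23% of all protein-coding promoters. Under a listed peak it stood in 1 of 31 family promoters (3.23%) and in 3.80% of protein-coding promoters. The 1 promoter was that of Ccnl1, where it begins at −18 from the gene start, outside the peak. These matches are letters in a fixed window and no measure of binding.

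Other genes of the cell cycle were counted by the same rule, against the same 21.1%. Of 19 Rb and E2F genes 7 were listed (36.8%). Rbl2, the gene of the Rb relative p130, had a fold of 7.74 from 82 fragments over 2.12, E2f2 had 4.13 and Tfdp2, an E2F partner, 5.33, while Rb1 and E2f1 had no assigned peak. Of 22 CDK partners, activators and modifying enzymes 10 were listed (45.5%). They were led by Gmnn, the inhibitor of replication licensing, with 6.88, Ccnc, the cyclin of CDK8 and CDK19, with 6.04, and Skp1, a ubiquitin ligase subunit, with 6.06. Wee1, the kinase that holds CDK1 inactive, had 2.61 and a q of 0.0418. Of 21 replication origin and helicase genes 4 were listed (19.0%), a share near the background: Pcna, the sliding clamp, with 7.95, Mcm7 with 6.65, Mcm5 with 5.51, and Orc4.

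Of 14 genes of mitotic kinases and the spindle checkpoint 5 were listed (35.7%), with folds of 6.81 at Birc5, the survivin gene, 7.04 at Aurkb and 4.93 at Plk1, kinases of mitosis. Of 13 genes of the anaphase-promoting complex 4 were listed (30.8%), with 6.97 at Anapc5, 6.61 at Anapc13 and 4.72 at Ube2s. Of 14 DNA damage checkpoint genes 7 were listed, among them all 3 Gadd45 stress genes, with 6.85 at Gadd45g, 4.78 at Gadd45b and 4.21 at Gadd45a. The interval of the last list (26.8 to 73.2) and that of the CDK partners (26.9 to 65.3) lay above the background, and those of the other 4 lists included it. As for the classes, these intervals are no test against the background.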

How the data were processed

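The submitters' processing notes name build mm10 and, with no role or order, bedtools, DESeq2, DiffBind 2.0.7, MACS2 2.1.0.20150420 and BWA 0.7.9a; the shift of cut sites and the treatment of duplicates are not given in the sources used here. A single peak list was used. Its pileup is a signal and its fold enrichment a ratio, per the file headers; −log10 p and −log10 q, also deposited, had damaged headers and were read by their place and by recomputing the Poisson −log10 p (largest difference 1.11e-04). The libraries behind each side are not named; pooling was assumed, with the direction read from the peak names.

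Every pileup was a whole multiple of 0.283 (tolerance 0.005), which gave the fragments. The fold then gave the control background, with a fragment length of 236 bp, taken from the shortest peak of the list. No value was fitted per sample, since no column carries a sample. No test of the list against other genes was made. Exact intervals and tests were checked on simulated data with control fragments counted at the site alone. The 1 kb and 10 kb windows, the lowest backgrounds and the selection of high peaks were not simulated. Python 3.11.15, SciPy 1.17.1 and statsmodels 0.14.6 were used.

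Peaks were named by a rule: in each class the 4 genes with the smallest q, every gene with 2 or more peaks and every peak outside the TSS in full, other members by fold, and up to 3 genes per pathway list. Cdk2, Cdk4, Cdk9, Cdk10, Cdk12, Ccnb1, Cdc25a, Cdc14a, Cdc42, Wee1, Orc4, the unlisted neighbours and the sequences shown were added after their values were seen. Members and lists were chosen with earlier results of these data known.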

Additional observations from a re-analysis of the deposited data

How the results depend on the processing

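The share of family genes with a listed peak (44.7%) moved to 56.5% with a peak within 5 kb of the gene span (29.1% of all protein-coding genes), to 9.41% with a pileup of at least 20 (3.21%) and to 16.5% by the exact site test (5.20%). It was 41.2% (18.1%) at a q of at most 0.01 and 36.5% (14.6%) by the exact test over the caller's window. The count of member peaks fell from 41 to 8 with a pileup of at least 20 and to 14 by the exact site test, each of which keeps fewer peaks by construction. The median fold of 4.84 became 8.06 without the pseudocount of 1. Class medians moved by less than 1 SD of their peaks with 1 peak per gene or with TSS peaks alone. The order of the classes by median fold did change. The cyclin median rose from 4.28 to 4.81 in both settings, above the 4.44 of Cdc genes. Leaving out replicates was not possible without values per sample. No paired analysis was possible because no column carries a sample. Control depth, with a local background of at most 8.0 control fragments at a member peak, limits every ratio.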
